A study of Mus musculus with 18 samples.

Results

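Tanc2, Cep350, Tceal8, Dnajc1, Vldlr, Thbs1, Mettl1, Ano10 and Rab1b are 9 of the 16358 genes measured on arrays of sorted mouse intestinal cells. They were listed together because, on these same arrays, their values were lowest in unlabelled cells, so the differences from unlabelled cells chose the list and are given here as a description with no test. All cells came from 6 female mice of a strain labelled H2B-YFP, 99 to 109 days old, in which the Cyp1a1 promoter drives a histone H2B-YFP fusion protein. Every mouse had received beta-naphthoflavone (βNF), an agonist of the aryl hydrocarbon receptor that turns this promoter on, and was sampled 10 days later. Each mouse gave 3 populations of 30000 cells: LCC (CD24+, UEA-1-, YFP-), which are the unlabelled cells, YFP-LRC (CD24+, UEA-1-, YFP+), which still held the histone label, and Paneth cells (CD24+, UEA-1+). From 8 ng of RNA per population 1 Affymetrix Mouse Exon 1.0 ST array was made, 6 arrays per population and 18 in all. No population of these mice was left uninduced, and a cell that never made the fusion protein would also have been sorted as YFP-.

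Intestinal epithelium is renewed by dividing cells in the crypts. A histone label made in a short pulse is diluted at each division, so a cell that keeps it has divided little since the pulse. Paneth cells are long-lived secretory cells of the crypt base, and CD24 marks them along with other crypt cells, while the lectin UEA-1 binds fucose on their granules. The 9 genes belong to no common pathway: they encode a scaffold protein and a centrosomal protein (Tanc2, Cep350), proteins of the early secretory pathway (Dnajc1, Rab1b), proteins of the cell surface or outside the cell (Vldlr, Thbs1), a membrane protein of the anoctamin family (Ano10) and proteins that act on RNA or its synthesis (Mettl1, Tceal8).

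The arrays read a gene through several probe sets, each a small group of probes that usually covers 1 exon, and the gene value used here is the median of their log2 values. The 9 genes had from 4 (Tceal8) to 27 (Thbs1) probe sets each. Tanc2, Vldlr and Mettl1 are the 3 of 9 genes whose 6 LCC values all lay below all 12 other values, a pattern found in 1.03% of all genes. By their means, LCC was lowest for each of the 9 genes and for 45.5% of all genes. Because the list was chosen on this contrast, nothing is read from these counts. Promoter windows of these 3 genes are shown since their LCC values do not overlap those of the other populations. They run from 250 bases before to 50 bases after the annotated start, come from RefSeq on GRCm38.p6, and read 5' to 3' on the gene's strand. Capitals mark 5 motifs, searched on both strands. The TATA box was searched as TATAAA. For the CCAAT box the letters were CCAAT. A GC box was taken as GGGCGG. The E-box searched was CACGTG. The core of the element that the aryl hydrocarbon receptor binds was searched as GCGTG.
Tanc2, chr11:105589736-105590035, plus strand: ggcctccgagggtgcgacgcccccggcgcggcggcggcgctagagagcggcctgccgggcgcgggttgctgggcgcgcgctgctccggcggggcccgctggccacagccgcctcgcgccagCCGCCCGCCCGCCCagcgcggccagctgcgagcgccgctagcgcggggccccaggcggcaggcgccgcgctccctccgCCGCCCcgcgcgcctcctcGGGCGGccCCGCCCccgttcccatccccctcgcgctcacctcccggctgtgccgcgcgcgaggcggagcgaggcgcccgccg
Mettl1, chr10:127041682-127041981, plus strand: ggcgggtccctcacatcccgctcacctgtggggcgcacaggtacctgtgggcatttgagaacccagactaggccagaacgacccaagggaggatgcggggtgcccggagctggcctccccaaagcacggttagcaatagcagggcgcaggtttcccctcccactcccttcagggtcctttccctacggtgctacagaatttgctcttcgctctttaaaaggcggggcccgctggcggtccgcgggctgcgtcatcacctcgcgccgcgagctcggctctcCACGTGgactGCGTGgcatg
Vldlr first start, chr19:27216234-27216533, plus strand: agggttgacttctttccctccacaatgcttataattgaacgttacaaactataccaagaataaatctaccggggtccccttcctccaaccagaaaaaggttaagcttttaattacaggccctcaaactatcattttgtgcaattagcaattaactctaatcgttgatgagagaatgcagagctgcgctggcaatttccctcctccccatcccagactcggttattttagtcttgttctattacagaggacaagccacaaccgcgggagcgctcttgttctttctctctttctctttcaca
Vldlr second start, chr19:27216770-27217069, plus strand: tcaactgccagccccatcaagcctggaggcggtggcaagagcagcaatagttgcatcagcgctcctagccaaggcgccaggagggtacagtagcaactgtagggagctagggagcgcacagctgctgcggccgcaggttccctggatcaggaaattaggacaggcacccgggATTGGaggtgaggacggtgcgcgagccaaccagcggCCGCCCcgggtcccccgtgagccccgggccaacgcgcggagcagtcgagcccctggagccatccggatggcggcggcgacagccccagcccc
The Tanc2 window holds 6 GC boxes, some of them overlapping each other, and 57 CpG pairs at 85.3% G or C. In the Mettl1 window there are 1 E-box and 1 GCGTG core. The first Vldlr window holds none of the 5 motifs at 43.0% G or C, and the second holds 1 CCAAT box and 1 GC box at 68.0%.

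Promoter windows were found for 7 of the 9 genes, 8 windows in all, and matches are described without any claim of binding. G or C content ran from 43.0% to 85.3% with a median of 64.0%, against a median of 52.7% over all 32851 windows of the table, of which 20.3% reached the genes' median. A GC box was present in 6 of the 8 windows and in 35.66% of all windows. The CCAAT box was present in 3 of 8 against 37.41%, the E-box in 3 of 8 against 7.15%, and the TATA box in 0 of 8 against 13.62%. The GCGTG core, of interest because βNF acts on the aryl hydrocarbon receptor, was present in 2 of 8 windows, those of Mettl1 and Ano10, against 32.39% of all windows. No 2 different motifs overlapped each other in these windows.

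The arrays of the LCC population differed from the others in more than these genes. The residual spread of an array, the scaled median absolute deviation of its probe sets from their median over the 18 arrays, was 0.413 to 0.834 on the LCC arrays, compared with 0.378 to 0.515 for YFP-LRC and 0.353 to 0.556 for Paneth. The 7 Paneth cell markers averaged 11.25 to 12.04 on the log2 scale in Paneth, 10.05 to 11.21 in YFP-LRC and 9.22 to 10.31 in LCC. The 5 markers of crypt base columnar stem cells averaged 7.07 to 7.66 on LCC arrays, 7.84 to 8.32 for YFP-LRC and 7.88 to 8.65 for Paneth. Myeloid markers, 6 genes, averaged 6.44 to 6.82 on LCC arrays, against 5.90 to 6.32 for YFP-LRC and 5.99 to 6.50 for Paneth. The 2 measured of 3 listed red blood cell genes averaged 5.07 to 7.36 on LCC arrays, 4.80 to 5.34 for YFP-LRC and 4.46 to 4.97 for Paneth. Those 2 genes went opposite ways: in YFP-LRC and in Paneth 1 was higher than in LCC and 1 lower, the lower 1 called by limma. Tuft markers, 5 genes, averaged 7.06 to 7.81 on LCC arrays, 7.51 to 8.30 for YFP-LRC and 8.40 to 9.45 for Paneth. For the 4 goblet markers these ranges were 9.38 to 10.32, 10.16 to 10.41 and 10.30 to 10.55, and for the 6 enteroendocrine markers 8.37 to 9.24, 9.08 to 9.57 and 7.88 to 8.19. The part of these marker genes in the results below was not tested, and in RNA from pooled cells a lower share of expressing cells and less RNA per cell cannot be told apart.

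**Figure D1:**
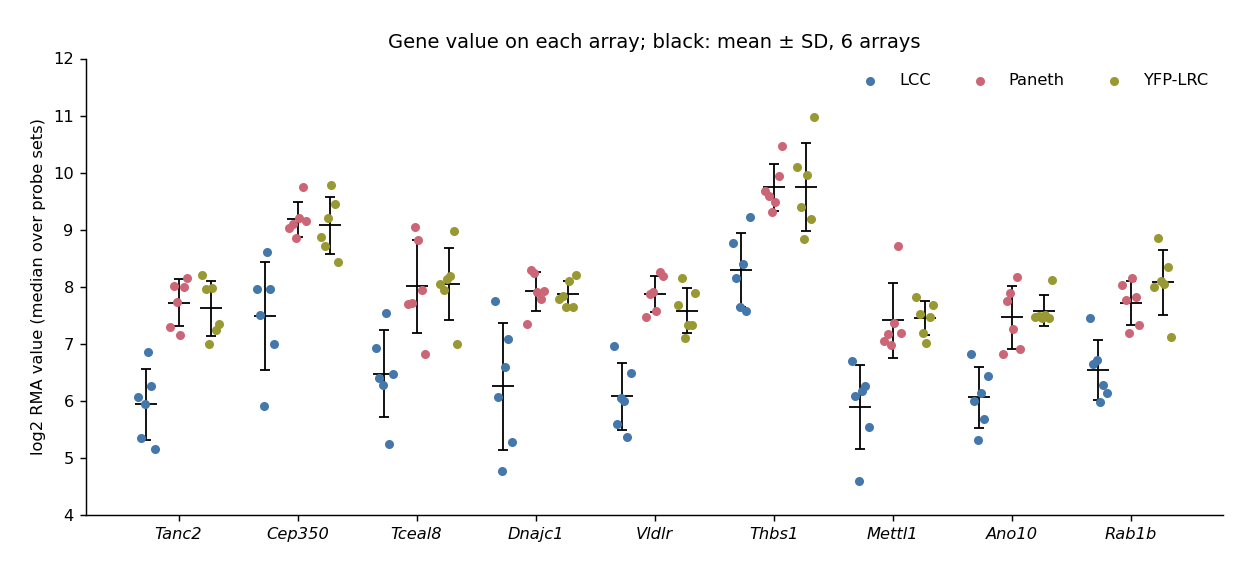
Gene values (log2, y axis) of the 9 genes on each of the 18 arrays, with 1 point per array and black bars for the mean and SD of 6 arrays. LCC means lie lowest for every gene, and for Tanc2, Vldlr and Mettl1 no LCC point reaches any point of the other populations.

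Tanc2 encodes a scaffold protein with ankyrin and tetratricopeptide repeats, best known from the postsynaptic side of neuronal synapses. On the LCC arrays its value ran from 5.15 to 6.85 with a median of 6.0. It ran from 6.99 to 8.21 (median 7.65) in YFP-LRC and from 7.14 to 8.15 (median 7.86) in Paneth cells. The highest LCC array was thus just below the lowest YFP-LRC array. YFP-LRC exceeded LCC by 1.68 ± 0.27 (SE, n = 6) on the log2 scale, a 3.21-fold difference, and Paneth exceeded LCC by 1.78 ± 0.27. Between YFP-LRC and Paneth the difference was -0.10 with a 95% interval of -0.67 to 0.47 (limma, adjusted p = 0.994). The list was not chosen directly on that contrast. Of the 12 other genes measured in a list of TANC scaffolds and synaptic scaffold partners, 1 was called higher in YFP-LRC than in LCC (limma, adjusted p under 0.05), where 6.33% of all genes were called higher and 0.917% lower. That gene was the kinase gene Mink1 (0.84, adjusted p = 0.0280). The paralog Tanc1, read by 32 probe sets, was 0.21 higher and was not called (adjusted p = 0.406).

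Cep350 encodes a large centrosomal protein that binds microtubules and stabilises centrioles. Its LCC values ran from 5.91 to 8.60 with a median of 7.73, the YFP-LRC values from 8.43 to 9.79 (median 9.04) and the Paneth values from 8.85 to 9.76 (median 9.12). The LCC array of mouse 4, at 8.60, was the only LCC array above the lowest YFP-LRC array. The difference was 1.59 ± 0.33 (SE, n = 6) for YFP-LRC minus LCC and 1.69 ± 0.33 for Paneth minus LCC. YFP-LRC and Paneth differed by -0.11 (95% interval -0.80 to 0.59, limma adjusted p = 0.995). Among 23 other centriole and centrosome genes, 6 were called higher for YFP-LRC against LCC and 0 were called lower, with a median difference of 0.52 against 0.04 over all genes. The 6 were Pcm1, a centriolar satellite protein (1.04), Cntrl (1.02), Cep43 (0.91), the anchoring protein gene Akap9 (0.86), Cdk5rap2 (0.81) and Cep135 (0.66). In Paneth minus LCC 7 of the 23 were called higher and 0 lower, where 12% of all genes were called higher and 2.53% lower.

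Dnajc1 encodes a J-domain protein of the endoplasmic reticulum membrane that works with the chaperone BiP, the product of Hspa5. It had the widest range on the LCC arrays of the 9 genes, from 4.76 to 7.75 with a median of 6.32. In YFP-LRC the values lay close together, from 7.64 to 8.21 (median 7.82, SD 0.24), and in Paneth they ran from 7.35 to 8.29 (median 7.91). The LCC array of mouse 1 alone overlapped the other populations, and in that mouse the Paneth array read 7.35, below it. Paneth exceeded LCC in 5 of 6 mice and YFP-LRC exceeded LCC in 6 of 6 mice. Mean differences were 1.62 ± 0.36 (SE, n = 6) for YFP-LRC minus LCC and 1.67 ± 0.36 for Paneth minus LCC. For YFP-LRC minus Paneth the difference was -0.05 (95% interval -0.79 to 0.70, limma adjusted p = 0.998).

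Rab1b encodes a small GTPase that controls vesicle traffic from the endoplasmic reticulum to the Golgi. LCC values ran from 5.98 to 7.44 (median 6.46), Paneth values from 7.2 to 8.16 (median 7.79) and YFP-LRC values from 7.12 to 8.86 (median 8.07). The LCC array of mouse 1 lay above the lowest array of each other population, and the remaining 5 LCC arrays lay below all of them. YFP-LRC exceeded LCC by 1.54 ± 0.27 (SE, n = 6) and Paneth exceeded LCC by 1.18 ± 0.27, the smallest Paneth difference of the 9 genes. It also had the widest gap between the labelled and the Paneth populations, 0.36 higher in YFP-LRC with a 95% interval of -0.19 to 0.92, which limma did not call (adjusted p = 0.994). Its near-identical paralog Rab1a was not analysed here, and how far probes for 1 copy bind RNA of the other was not tested.

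Of the pathway lists, those of Dnajc1 and Rab1b are described together. Among 20 other chaperones and folding enzymes of the endoplasmic reticulum, 5 were called higher in YFP-LRC than in LCC and 11 in Paneth than in LCC, with 0 called lower in either. The translocation factor gene Sec63 was 1.29 higher in YFP-LRC and 1.72 in Paneth (limma, adjusted p = 0.0195 and 0.00152). Sil1, an exchange factor of BiP, was 0.95 and 0.96 higher (adjusted p = 0.00988 and 0.00380). Hspa5 itself was 0.65 higher in YFP-LRC and was not called there (adjusted p = 0.0750), and 0.74 higher in Paneth, where it was called (adjusted p = 0.0296). Of 43 other genes of transport between endoplasmic reticulum and Golgi, 8 were called higher in YFP-LRC than in LCC and 19 in Paneth than in LCC, with 0 lower. They include the SNARE gene Ykt6 (1.02 in YFP-LRC minus LCC), the tethering factor gene Uso1 (1.01) and Gbf1 (0.95), an activator of Arf proteins. Over all genes 6.33% were called higher in YFP-LRC and 12% in Paneth than in LCC. The median difference was 0.58 and 0.71 for the chaperone list and 0.50 and 0.69 for the transport list, against 0.04 and 0.03 over all genes. Paneth cell markers ran the same way, with 4 of 7 called higher in YFP-LRC and 6 of 7 in Paneth than in LCC. So did the crypt base columnar markers, with 4 of 5 called higher in each comparison. Of 5 tuft cell markers 0 were called in YFP-LRC minus LCC by limma, with 3 at an unadjusted p under 0.05, and 5 were called higher in Paneth minus LCC. Goblet markers were called higher for 1 of 4 and 2 of 4. Of 6 enteroendocrine markers 0 were called in YFP-LRC minus LCC by limma, with 3 at an unadjusted p under 0.05, and 3 were called lower in Paneth minus LCC. The part of these cell types in the secretory lists was not tested.

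Vldlr encodes the very low density lipoprotein receptor, which takes up lipoproteins that carry apolipoprotein E and also transmits the reelin signal in brain. Its LCC values ran from 5.36 to 6.96 (median 6.03), its YFP-LRC values from 7.10 to 8.16 (median 7.50) and its Paneth values from 7.47 to 8.25 (median 7.89). All 6 LCC arrays were below all others. YFP-LRC exceeded LCC by 1.51 ± 0.24 (SE, n = 6) and Paneth exceeded LCC by 1.80 ± 0.24. Paneth was above YFP-LRC in 4 of 6 mice, and the difference of -0.30 for YFP-LRC minus Paneth had a 95% interval of -0.80 to 0.21 (limma, adjusted p = 0.994). Of 13 other genes of lipoprotein receptors and the reelin pathway, 2 were called higher in YFP-LRC than in LCC, Lrp6 (0.64, adjusted p = 0.04997) and Lrp4 (0.58), and 0 lower. Over all genes the share called higher in YFP-LRC minus LCC was 6.33%. Neither scaling alternative, centring each array or a second quantile normalization, called any gene of this list in that comparison, and leaving out 1 array gave 0 to 2. The closest relative among them, the other reelin receptor gene Lrp8, was -0.16 in YFP-LRC minus LCC (adjusted p = 0.589) and -0.20 in Paneth minus LCC (adjusted p = 0.405), and was not called.

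Thbs1 encodes thrombospondin 1, a secreted glycoprotein of the extracellular matrix that inhibits blood vessel growth and can activate latent TGF-beta. The LCC values ran from 7.57 to 9.22 (median 8.27), those of YFP-LRC from 8.84 to 10.98 (median 9.67) and those of Paneth from 9.30 to 10.46 (median 9.63). Mouse 6 gave the highest array in each of the 3 populations. Mean differences were 1.45 ± 0.33 (SE, n = 6) for YFP-LRC minus LCC and 1.45 ± 0.33 for Paneth minus LCC. The YFP-LRC and Paneth means were 9.74 and 9.74, with a difference of 0.0017 and a 95% interval of -0.68 to 0.68 (limma, adjusted p = 0.9995). With the mouse as a replicate block the differences from LCC were the same and their standard error was 0.18, so these unpaired errors are the wider ones for this gene. None of the 18 other genes in its list of thrombospondins, their receptors and latent TGF-beta was called in YFP-LRC minus LCC by limma, and 4 had an unadjusted p under 0.05. The paralogs Thbs2, Thbs3 and Thbs4 lay at -0.16, -0.06 and -0.12 in that comparison. In Paneth minus LCC the integrin gene Itgb1 was called higher (0.98, adjusted p = 0.0213) and the remaining 17 were not called. There 12% of all genes were called higher. Platelets also carry thrombospondin 1, and the 4 platelet markers averaged 5.96 to 6.39 on LCC arrays, 5.76 to 6.32 for YFP-LRC and 5.95 to 6.32 for Paneth.

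Ano10 encodes a member of the anoctamin family, which holds ion channels and proteins that move lipids across membranes. LCC values ran from 5.31 to 6.82 (median 6.06), YFP-LRC values from 7.45 to 8.12 (median 7.48) and Paneth values from 6.81 to 8.17 (median 7.50). The highest LCC array and the lowest Paneth array were nearly level, so these ranges touched, whereas no LCC array reached the lowest YFP-LRC array. YFP-LRC exceeded LCC by 1.52 ± 0.25 (SE, n = 6) and the Paneth excess was 1.4 ± 0.25, seen in 5 of 6 mice. The difference of YFP-LRC minus Paneth was 0.12 (95% interval -0.41 to 0.64, limma adjusted p = 0.994). Of 7 other anoctamins, 2 were called higher in YFP-LRC than in LCC, Ano9 (1.04) and Ano7 (0.94), and 3 in Paneth than in LCC, these genes and Ano6 (0.89). Shares called higher over all genes were 6.33% and 12%. The list's median was -0.13, and the chloride channel gene Ano1 lay at -0.24 in YFP-LRC minus LCC and was not called (adjusted p = 0.381).

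Mettl1 encodes the catalytic subunit of an enzyme that methylates guanosine in tRNAs. Its LCC values ran from 4.6 to 6.69 (median 6.13), its Paneth values from 6.97 to 8.72 (median 7.18) and its YFP-LRC values from 7.01 to 7.83 (median 7.49). No LCC array reached the other populations. YFP-LRC exceeded LCC by 1.56 ± 0.31 (SE, n = 6), Paneth exceeded LCC by 1.52 ± 0.31, and YFP-LRC minus Paneth was 0.04 (95% interval -0.61 to 0.69, limma adjusted p = 0.998). Wdr4, whose product is the partner subunit of the enzyme, was -0.10 in YFP-LRC minus LCC and -0.25 in Paneth minus LCC, and limma called neither (adjusted p = 0.729 and 0.291). Of 26 other tRNA modification genes, 1 was called higher in YFP-LRC than in LCC, the pseudouridine synthase gene Pus7 (1.25, adjusted p = 0.0291), and 3 in Paneth than in LCC, with 0 lower in either. Of all genes, 6.33% and 12% were called higher in these comparisons.

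Tceal8 encodes a small nuclear protein of a family related to the transcription elongation factor A, several members of which, like it, lie on the X chromosome. The LCC values ran from 5.24 to 7.54 (median 6.44), the YFP-LRC values from 7.0 to 8.98 (median 8.09) and the Paneth values from 6.83 to 9.04 (median 7.82). Of the 6 LCC arrays 4 lay below all others, the fewest of the 9 genes. YFP-LRC exceeded LCC by 1.57 ± 0.38 (SE, n = 6) and Paneth exceeded LCC by 1.53 ± 0.38, in 6 of 6 mice each, and the standard error was the largest of the 9 genes. YFP-LRC minus Paneth was 0.05 (95% interval -0.75 to 0.84, limma adjusted p = 0.998). Among 9 other Tceal and Bex genes, Bex1 was called higher in YFP-LRC than in LCC (0.89, adjusted p = 0.0138) and in Paneth than in LCC (0.71, adjusted p = 0.0217), and the other 8 were not called in either comparison. Shares called higher over all genes were 6.33% and 12%. The Tceal and Bex genes are similar in sequence, and binding of 1 member's RNA to another's probes was not tested.

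Across the 9 genes, YFP-LRC minus LCC ran from 1.45 to 1.68 with a median of 1.56, and Paneth minus LCC from 1.18 to 1.80 with a median of 1.53. All 9 exceeded 1 on the log2 scale in both, as did 1.98% and 4.30% of all genes, and since the list was chosen on these differences nothing is read from that. These 2 comparisons share the LCC arrays. Between YFP-LRC and Paneth, limma called 0 of the 9 genes, and 0 had an unadjusted p under 0.05, where 58 genes or 0.355% of all were called (9 or 0.055% higher and 49 or 0.3% lower in YFP-LRC) and 903 had an unadjusted p under 0.05. The median difference over the 9 genes was 0.0017 and over all genes 0.0026. Both differences from LCC chose the list, so this contrast is not independent of the choice. Likeness of YFP-LRC and Paneth is therefore not read from the 0 calls. The intervals of single genes left room for differences of up to 0.92 on the log2 scale in one direction and 0.80 in the other. In none of the 9 pathway lists did limma call a gene between YFP-LRC and Paneth, while 0 to 8 genes per list had an unadjusted p under 0.05.

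Single probe sets varied widely within a gene. The LCC mean was the lowest of the 3 populations in 98 of the genes' 113 probe sets, against 44.4% of all probe sets. In 7 of the 113 all 6 LCC arrays lay below all others, against 0.539%. A YFP-LRC minus LCC difference over 1 was seen in 65 of the 113 against 9.4%. The gene values that chose the list are medians of these probe sets, so nothing is read from these counts. By brightness, 84 were bright and 29 dim, that is with a mean above or below 6.65, the median of all probe set values. For Cep350 and Tceal8 every probe set, 6 and 4, was lowest in LCC, and for Thbs1 26 of 27 were. In Mettl1 only 4 of 7 were. Its probe set 4989073 was highest in LCC (7.94, against 7.42 in Paneth and 7.37 in YFP-LRC), and 5242416 was lowest there (6.23, against 7.86 and 8.73). Ano10 had a like case in 4730964, which averaged 8.53 for LCC, 7.75 for YFP-LRC and 7.96 for Paneth. Vldlr probe set 4738138 read 9.67, 9.62 and 9.67 in LCC, Paneth and YFP-LRC, level in all populations, while 5187889 read 3.90, 7.57 and 6.80.

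For each of the 9 genes the difference of gene values exceeded the median difference of its probe sets. The gap was small for Vldlr (1.51 against 1.49), Ano10 (1.52 against 1.43) and Tceal8 (1.57 against 1.47). It was over 1.5 times for 3 genes: Mettl1 (1.56 against 0.63), Tanc2 (1.68 against 0.87) and Rab1b (1.54 against 0.84). These 3 genes have 7 to 9 probe sets, of which 3 or 4 are dim. In the 5 bright probe sets of Tanc2 the median difference was 1.16, and in its 4 dim ones -0.05. In Rab1b these medians were 1.26 for 5 bright and 0.52 for 4 dim probe sets. Mettl1 went the other way, with 0.36 for 4 bright and 0.63 for 3 dim ones. With the filter on dim probe sets the differences of Mettl1, Tanc2 and Rab1b were 0.91, 1.06 and 1.31. With the mean over probe sets in place of the median, the differences of Mettl1, Tanc2 and Rab1b were 0.71, 0.75 and 0.84, while that of Tceal8 was 1.68. Over the 9 genes, the 84 bright probe sets had a median of 1.25 and the 29 dim ones 0.87, and the median SD on the LCC arrays was 0.90 and 0.74.

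**Figure D2:**
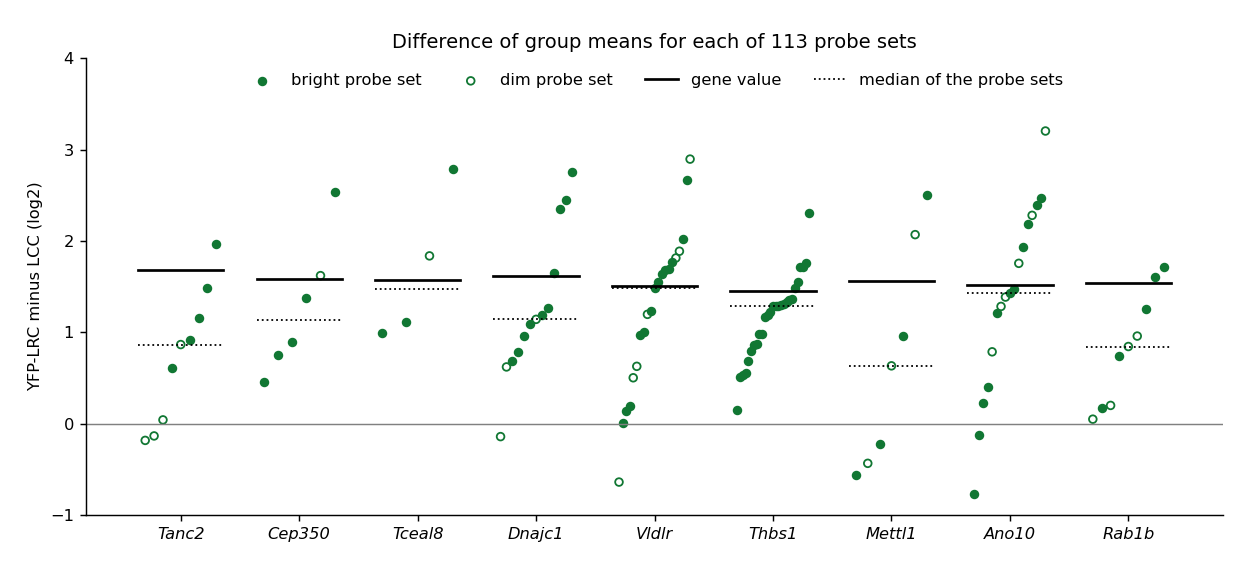
Difference of YFP-LRC minus LCC group means (log2, y axis) for every probe set of each gene, sorted within the gene, with filled points for bright and open points for dim probe sets. The solid line for the gene value lies above the dotted line for the median probe set in all 9 genes, farthest in Mettl1 (1.56 against 0.63).

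Exon usage, the change of single probe sets relative to the rest of the gene, was tested between YFP-LRC and Paneth with diffSplice from limma. None of the 9 genes was called, where 165 of 15207 genes or 1.09% were, and 2 had a Simes p under 0.05 before adjustment, Tanc2 and Vldlr. In Tanc2 (diffSplice, adjusted p = 0.388) the probe set that stood out was 4883972, which read 4.85 in YFP-LRC and 3.83 in Paneth and is dim. In Vldlr (diffSplice, adjusted p = 0.450) it was 4940504, at 3.24 and 5.01, also dim.

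Values on the LCC arrays were set against the residual spread of the array. LCC 1 had the lowest spread of the population at 0.413 and LCC 4 the next at 0.523, followed by 0.642, 0.681, 0.736 and 0.834 on LCC 2, 3, 5 and 6. In 8 of the 9 genes the highest LCC value was on LCC 1 (5 genes) or LCC 4 (3 genes), and the exception was Thbs1, highest on LCC 6. LCC 3 held the lowest value of Cep350, Dnajc1, Mettl1 and Ano10, and LCC 5 that of Tceal8, Vldlr and Thbs1. Pearson's r between value and spread within LCC was negative for 9 of 9 genes, from -0.65 in Dnajc1 to -0.08 in Thbs1, with a median of -0.55, and it was negative for 54.5% of all genes, whose median was -0.10. The genes were chosen for low LCC values, and spread is measured from a median over all 18 arrays, most of them not LCC. That choice favours a negative r within LCC, so nothing is read from the 9 of 9. None of the 9 relations within LCC passed an exact 2-sided permutation test over 6 arrays. The lowest p, that of Dnajc1, was 0.164 (Spearman's rho = -0.54, exact permutation p = 0.297), and the adjusted p over the 27 relations of 9 genes in 3 populations was 0.508. Without the 2 arrays farthest from the median spread, r in LCC ran from -0.98 in Tceal8 to 0.55 in Rab1b. Over all 18 arrays, the mean of the 9 standardised gene values had r = -0.77 with spread. The largest spreads were on LCC arrays, so spread and population cannot be told apart in that value, and no p is given for it.

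Within Paneth r ran from -0.69 to 0.85 and within YFP-LRC from -0.73 to 0.79, with 3 and 5 of 9 genes negative. Thbs1 in Paneth was the only relation with an exact permutation p under 0.05 (r = 0.85, p = 0.0361, rho = 0.94, p = 0.0167), and its adjusted p was 0.508 for r and 0.450 for rho. Leaving out the 2 farthest arrays brought that r to 0.24. The test runs over the 720 orders of 6 arrays, which sets a floor on p.

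**Figure D3:**
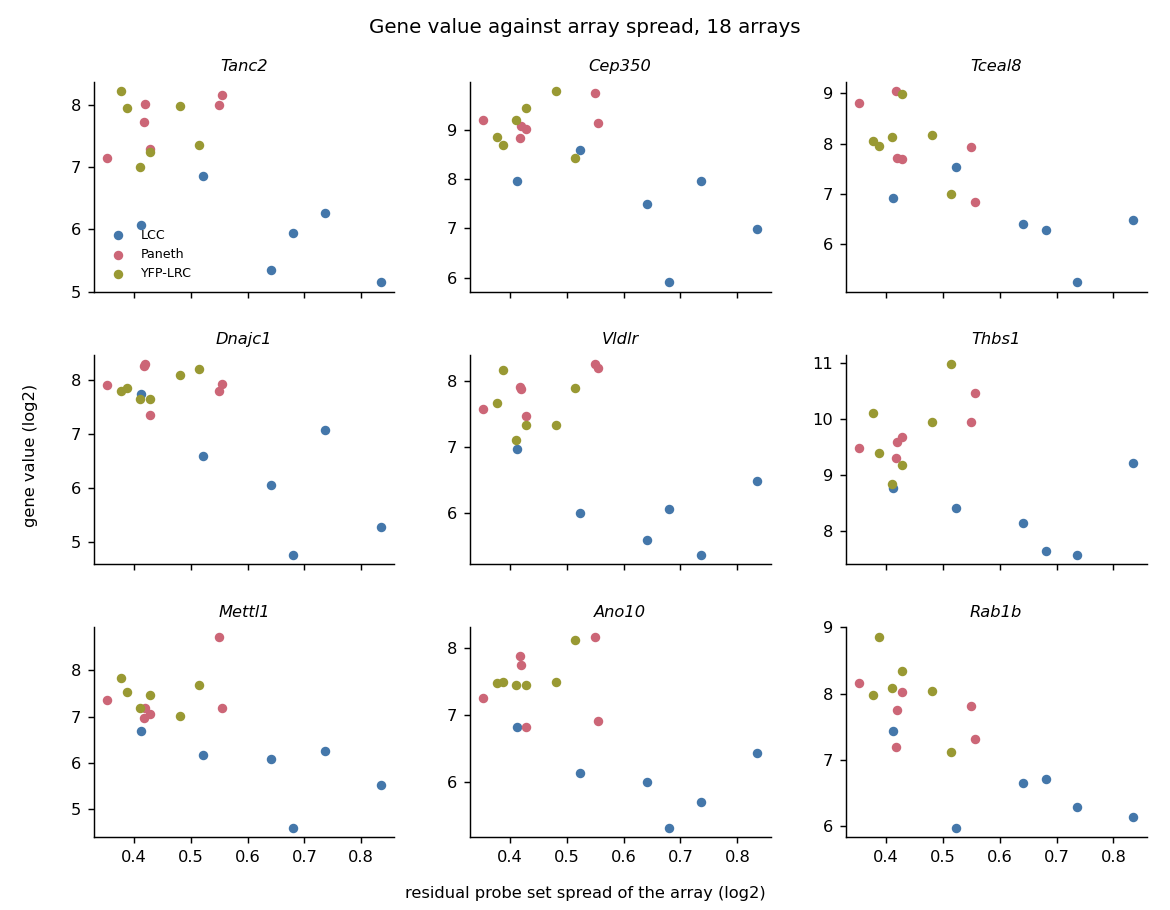
Gene value (log2, y axis) against the residual probe set spread of the array (log2, x axis) for the 9 genes, with 1 point per array coloured by population. LCC arrays span 0.413 to 0.834 in spread and the other 12 arrays 0.353 to 0.556. LCC 1, the leftmost LCC point, lies above the lowest point of another population in Tceal8, Dnajc1, Ano10 and Rab1b. In the remaining genes it lies below all 12.

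The size of the differences from LCC depended on how array spread was treated. Spread was measured from the median over all 18 arrays, most of them not LCC, and was largest on LCC arrays. Spread and population therefore cannot be fully told apart here, and no cause is read from these settings. With the residual spread as a covariate in the fit, YFP-LRC minus LCC had a median of 1.33 over the 9 genes, with Tceal8 at 0.74, Dnajc1 at 0.96 and Thbs1 at 1.75. In that fit limma called 0 of 16358 genes in YFP-LRC minus LCC, with 1837 at an unadjusted p under 0.05, so none of the list genes named above was called there. In Paneth minus LCC it called 354 higher and 83 lower, among them 6 of the endoplasmic reticulum to Golgi list, 3 of the chaperone list and 0 of the centrosome list. When the 2 LCC arrays with the least spread, LCC 1 and LCC 4, alone stood for the population, the medians were 1.10 and 0.99 for YFP-LRC and Paneth. These were also the LCC arrays with the highest median correlation with the other arrays (0.905 and 0.887). Smaller differences are thus partly built into this choice. With it Dnajc1 was 0.70 and Rab1b 1.36 in YFP-LRC minus LCC. In that comparison, with only 2 LCC arrays in the fit, limma called 1 gene higher and 3 lower. Centring each array on its median moved the median of all genes in Paneth minus LCC from 0.03 to -0.08, and the calls there went from 1958 higher and 414 lower to 1389 and 983. In YFP-LRC minus LCC they went from 1035 higher and 150 lower to 610 and 295. Quantile normalization of the gene values a second time gave 378 and 236 for YFP-LRC and 995 and 785 for Paneth. Called higher in YFP-LRC minus LCC under centring were 5 centrosome, 4 chaperone and 4 transport genes, and 5, 2 and 3 with that second normalization. In Paneth minus LCC these 3 lists had 3, 8 and 16 genes called higher under centring, 3, 5 and 10 with the second normalization and 0, 2 and 1 with LCC 1 and LCC 4 only, where YFP-LRC minus LCC gave 0 in each. In the TANC, Tceal and Bex, tRNA modification and anoctamin lists, YFP-LRC minus LCC had 1, 1, 1 and 2 called higher under centring, 0, 0, 1 and 0 with the second normalization, and 0 to 3, 1 to 2, 0 to 3 and 1 to 2 without 1 array. Leaving out 1 array at a time gave 2 to 11 centrosome, 3 to 8 chaperone and 4 to 16 transport genes in YFP-LRC minus LCC. In Paneth minus LCC the same gave 2 to 11, 7 to 13 and 14 to 25. All 9 genes stayed above 0 in both comparisons under each setting tried, a direction that the choice of the list favours.

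**Figure D4:**
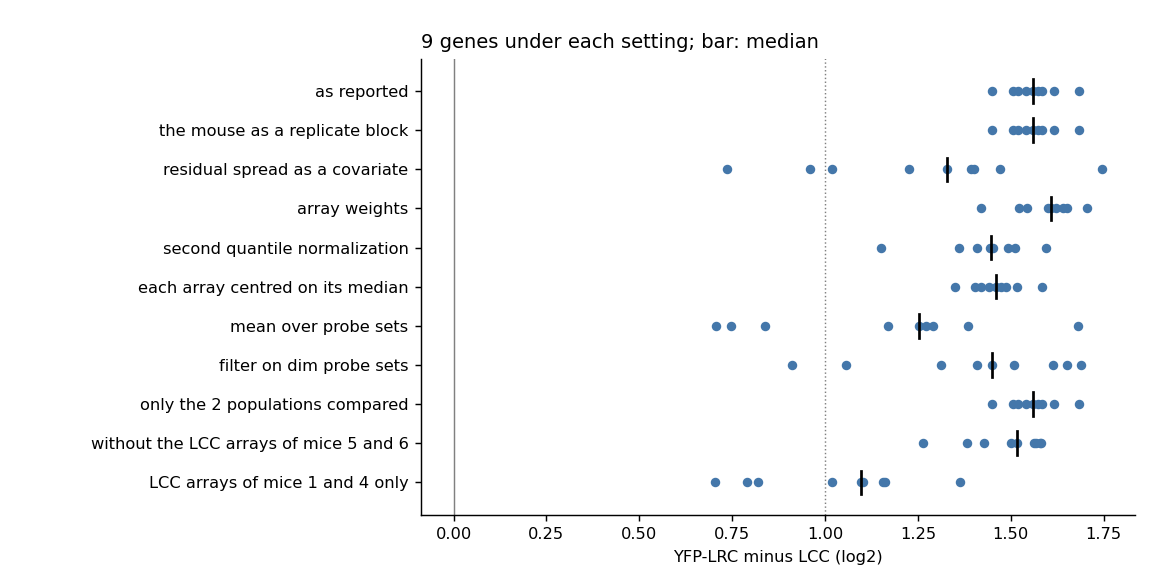
YFP-LRC minus LCC (log2, x axis) for the 9 genes, 1 point per gene, as reported and under each of 10 other settings of the fit, with a bar at the median of the genes. The median runs from 1.10 with LCC 1 and LCC 4 only to 1.61 with array weights, and no point lies at or below 0.

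The spread between arrays was above the median of all genes for 9 of the 9 genes over the LCC arrays and over the Paneth arrays, and for 7 of 9 in YFP-LRC, where Dnajc1 (SD 0.24) and Ano10 (0.27) lay below it. Their median SD was 0.64 over LCC arrays, 0.49 over YFP-LRC arrays and 0.41 over Paneth arrays, against 0.37, 0.29 and 0.28 for all genes. Over the 6 LCC arrays, 30 of the 36 pairs among the 9 genes correlated positively, with a median r of 0.30 and the highest, 0.94, between Dnajc1 and Mettl1. In Paneth 22 of 36 pairs were positive (median 0.27), and in YFP-LRC 19 of 36 (median 0.05). These values are descriptions, since all genes of a population were read on the same 6 arrays.

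The list does not exhaust the genes of this pattern. Ranked by the smaller of the 2 differences from LCC among 15207 genes with at least 3 probe sets, Tanc2 stood at 2, Dnajc1 at 4, Cep350 at 6, Tceal8 at 7, Mettl1 at 8, Vldlr at 9 and Thbs1 at 11. Ano10 stood at 19 and Rab1b at 81, so 72 other genes ranked above Rab1b. Over all 16358 genes, 13 others reached at least the list's lowest value in each comparison, 1.45 and 1.18. The first genes outside the list were Immt, a mitochondrial inner membrane protein (1.75 and 1.70 for YFP-LRC and Paneth minus LCC), Spa17 (1.68 and 2.64), the stem cell receptor gene Lgr5 (1.61 and 2.27) and Gm6710 (1.49 and 2.27). Arhgap21, Sytl2, Galnt7, Denr, Nupl1 and Wars followed, with smaller differences of 1.41 to 1.43. Spa17, Lgr5, Gm6710 and Sytl2 were at least 0.66 higher in Paneth than in YFP-LRC by their means, which none of the 9 genes was.

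Likeness was measured as Pearson's r over 18 arrays with the mean of the 9 standardised gene values. The 9 genes themselves reached 0.77 to 0.93. Of the other genes with at least 3 probe sets, 47 had r over 0.9, and the most alike were Ets2, a transcription factor gene (0.961), Rfc1, the large subunit of replication factor C (0.955), and Arhgap21 (0.949). Mecom, Shoc2, Stra6l, Macf1, Adgre5, the receptor kinase gene Kit and Bckdk followed at 0.936 to 0.945. Over the 12 Paneth and YFP-LRC arrays alone, Ets2 had r = 0.74, Arhgap21 0.52, Kit 0.32 and Bckdk 0.10. Within the 6 LCC arrays the same genes had r = 0.95, 0.89, 0.82 and 0.95. No p is given for these values, as the arrays share population and spread.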

How the data were processed

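The authors deposited log2 values for 229581 probe sets on 18 arrays. Per the file headers, these came from Affymetrix Power Tools 1.12.0 by RMA (background correction, quantile normalisation over all arrays, median polish) for core probe sets on mm9, and both deposited tables held identical values. Probe sets with 1 gene symbol (209279) were kept, those with several (4446) or none (15856) were left out, and symbols were updated through RefSeq names of GRCm38.p6. No filter on low values was applied. The 6 arrays per population limit the precision.

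Differences were fitted with limma 3.58.1 in R 4.3.3 over all 16358 genes and 18 arrays, with a mean per population and Benjamini-Hochberg adjustment in each comparison, after the code was tested on simulated data. Calls were made below an adjusted p of 0.05. Relations with array spread used exact permutation tests in SciPy 1.17.1. The 9 genes, the pathway and marker lists and the tests were chosen with earlier results of these data known. The text names the 9 genes, list genes that were called or are close paralogs or partners, the 10 genes outside the list with the largest smaller difference from LCC, and the 10 genes most alike. List counts leave out the 9 genes.

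Each mouse gave all 3 populations, so array numbers pair the samples by design. Deviations of same-numbered arrays from their group means correlated at 0.015 to 0.406 for YFP-LRC with LCC, -0.114 to 0.177 for Paneth with LCC and 0.041 to 0.175 for YFP-LRC with Paneth. The code in the array name of YFP-LRC 6, read here as a litter label, differed from that of the other arrays of mouse 6. That array was assigned to mouse 6 by its title. No date or batch of hybridisation is given in the sources used here.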

Additional observations from a re-analysis of the deposited data

Results flagged for a closer look

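Each gene was tested for 1 array standing apart from the other 5 of its population with Dixon's ratio, in 27 groups of 6 arrays, and 2 groups exceeded the critical value at the 95% level. Chance flags about 1 in 20 groups. Mettl1 read 8.72 on Paneth 5, above the other 5 Paneth arrays. Ano10 read 8.12 on YFP-LRC 6, above the other 5 YFP-LRC arrays, which lay close together. In both cases the array was high, away from the LCC values, and the cause was not tested.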

How the results depend on the processing

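Settings tried were the mouse as a replicate block, residual spread as a covariate, array weights, a second quantile normalization, centring each array, the mean over probe sets, a filter on dim probe sets, only the populations compared, LCC without mice 5 and 6, LCC of mice 1 and 4 only, and leaving out each array in turn. The median over the 9 genes of YFP-LRC minus LCC was 1.56 with the replicate block, which called 0 of the 9 between YFP-LRC and Paneth, and 1.10 with the LCC arrays of mice 1 and 4 only. Leaving out 1 array gave 1.37 to 1.68, 1.37 to 1.73 for Paneth minus LCC and -0.051 to 0.032 for YFP-LRC minus Paneth. Genes called higher in YFP-LRC minus LCC, 1035, became 378 after a second quantile normalization, 610 after centring (295 lower), 381 with only the 2 populations, 1702 with the mean over probe sets (426 lower) and 466 to 1762 without 1 array. Those called in Paneth minus LCC, 1958 higher and 414 lower, became 995 and 785 after the second quantile normalization and 1389 and 983 after centring. Between YFP-LRC and Paneth, 9 higher and 49 lower calls became 11 and 95 with array weights, and exon usage calls from 165 to 18 with the filter on dim probe sets.

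YFP-LRC minus Paneth was near 0 for most of the 9 genes and changed sign in 34 of 252 cases, with 0 calls. With array weights Tanc2 was 0.0041, Tceal8 -0.014 and Thbs1 -0.022. With the mean over probe sets Cep350 was 0.0051, Tceal8 -0.071 and Thbs1 -0.074. With the filter on dim probe sets Tceal8 was -0.013, Dnajc1 0.019 and Ano10 -0.014. Tceal8 was -0.040 with the spread covariate and Dnajc1 0.027 after the second quantile normalization. Without 1 array the values ran from -0.22 to 0.029 (Tanc2), -0.25 to 0.023 (Cep350), -0.19 to 0.25 (Tceal8), -0.16 to 0.026 (Dnajc1), -0.25 to 0.18 (Thbs1), -0.048 to 0.30 (Mettl1) and -0.014 to 0.26 (Ano10). Centring turned r of Thbs1 with spread within LCC to 0.025. Causes were not tested. Whether the 29 dim probe sets were detected above background was not tested.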
